A study of Mus musculus with 45 samples.

Results

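The 37 genes of the mouse mitochondrial genome were read in RNA-seq of mESCs (mouse embryonic stem cells) in which the histone methyltransferase EHMT2 was degraded or inhibited. They are all the gene rows whose identifier starts with mt-, 37 of 55401, and comprise 13 messenger RNAs (mRNAs), 2 ribosomal RNAs (rRNAs) and 22 transfer RNAs (tRNAs). The rule itself uses no measured value, although the genes were chosen with earlier results of these data known.

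Mitochondrial DNA is a small circle that is transcribed from both strands into long precursors, which are then cut into separate RNAs, often at the tRNAs that lie between the other genes. The mRNAs encode core subunits of respiratory complexes I, III and IV and of ATP synthase, the rRNAs build the mitochondrial ribosome, and the tRNAs decode the mRNAs inside the organelle. All other subunits, and the enzymes that copy, transcribe and stabilize mitochondrial nucleic acids, are encoded in the nucleus.

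The series holds 45 libraries in 15 groups of 3. In the time course, EHMT2-dTAG-mcherry mESCs of strain BL6/129, which carry a degron tag on EHMT2, received DMSO or the degrader dTAG-13 for 24 h or 7 d (12 libraries). The washout experiment used the same 3 clones, E2-17, E2-20 and E2-K71, with 15 d of DMSO, 15 d of dTAG-13, or 7 d of dTAG-13 and then 8 d in DMSO (Recovery, 9 libraries). In the sorting experiment, EHMT2-dTAG-mcherry cells with a MERVL-GFP reporter, which lights up in 2-cell-like cells, received DMSO or dTAG-13 over 72 h, and GFP-negative were sorted from GFP-positive cells (12 libraries). The Dppa4 experiment compared wild-type (WT) WTJ1 mESCs with mESCs that lack Dppa4, a nuclear activator of 2-cell genes, after CRISPR/Cas9 (DPPA4KO, here KO), each given DMSO or the EHMT1 and EHMT2 inhibitor UNC0638 for 48 h (12 libraries). In that experiment the replicates were separate clones of each genotype. EHMT2 was thus tagged in the controls of the first 3 experiments too, all cells grew in serum and LIF, and mESCs are kept on mouse fibroblast feeders, whose own mitochondrial RNA the same reads would hold.

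Values for single libraries were used for the Dppa4 experiment, with 8399885 to 12710949 gene reads per library. The other 3 experiments were analysed as the authors' group means, so they carry no replicate check and no test. Dppa4 had 0 reads in all 6 KO libraries and 700 to 920 normalized counts in the 6 WT libraries. Tagged EHMT2 is lost as protein, so its transcript does not check the degradation. All 5 pluripotency markers (Pou5f1, Nanog, Sox2, Zfp42 and Esrrb) were detected in every group. The library KO UNC0638 3 stood apart from its group in the mitochondrial genes, so the results that rest on it are given with and without it.

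The genes are packed closely. In the GRCm38 (mm10) annotation 28 lie on the plus strand and 9 on the minus strand, the latter being mt-Nd6 and the tRNAs mt-Tq, mt-Ta, mt-Tn, mt-Tc, mt-Ty, mt-Ts1, mt-Te and mt-Tp. Of their neighbours, 9 pairs overlap by 1 to 43 bases, the most being mt-Atp8 and mt-Atp6, whose reading frames share the bases in capitals at the end of mt-Atp8 (chrM:7907-7969, plus strand). The next largest overlap of mRNAs on the same strand joins mt-Nd4l to mt-Nd4 (end of mt-Nd4l at chrM:10144-10173, plus strand, shared bases in capitals). Reads in such places cannot be given to a single gene with certainty.
mt-Atp8: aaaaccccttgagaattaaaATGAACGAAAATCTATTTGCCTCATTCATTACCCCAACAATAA
mt-Nd4l: gtccaaaatctcaacctactacaATGCTAA

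A second source of uncertainty lies in the nucleus. A block of 7 annotated pseudogenes on chromosome 1 (chr1:24611535-24616197, minus strand) copies the stretch of mitochondrial DNA from mt-Co1 to mt-Nd4, and 6 of the 7 were identical to their mitochondrial counterpart over the whole aligned length. The first 60 bases of mt-Co2 (chrM:7013-7072, plus strand) and of its copy Gm28661 (chr1:24615506-24615565, minus strand) are shown with the start codon in capitals because they cannot be told apart.
mt-Co2: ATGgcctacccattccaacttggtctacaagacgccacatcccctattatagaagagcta
Gm28661: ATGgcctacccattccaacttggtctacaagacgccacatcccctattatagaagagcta
Reads that fitted both places were put at a single place at random. The ratio of Gm28661 to mt-Co2 was 0.983 to 1.03 over the 12 Dppa4 libraries, and that of Gm28437 to mt-Co3 was 0.985 to 1.04. That of Gm10222 to mt-Nd4l was 0.981 to 1.15. Other copies took more reads than the mitochondrial gene, with ratios of 1.20 to 1.59 for Gm28438 to mt-Nd3 and 1.17 to 1.30 for Gm10925 to mt-Atp6, although they too are identical to it over the aligned length. Copies of part of a gene took fewer, with 0.295 to 0.395 for Gm28439 to mt-Nd4 and 0.150 to 0.309 for Gm29216, which matches only the end of mt-Co1. The levels of mt-Co2 and mt-Co3 are therefore about as large as those of their copies, and adding the copies back changed no call on a mitochondrial gene in any contrast of the Dppa4 experiment.

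Levels were first compared per length, in normalized counts per kilobase (counts divided by the authors' library size factor and by gene length), over the 12 Dppa4 libraries. Reads placed at the chromosome 1 copies are not in these values. Copies took about as many reads as mt-Co2, mt-Co3 and mt-Nd4l, more than mt-Atp6 and mt-Nd3, and fewer than mt-Co1 and mt-Nd4. By contrast, mt-Nd1, mt-Nd2, mt-Nd5, mt-Nd6 and mt-Cytb lie outside the copied stretch. The order and overlaps below hold for reads assigned to the mitochondrial genes and were not computed with the copies added. mt-Co1, the catalytic subunit of complex IV (cytochrome c oxidase), was the most abundant of the mRNAs and rRNAs at a mean of 65712, with 48369 to 76337 in single libraries. It did not overlap mt-Co2, the complex IV subunit that takes up electrons from cytochrome c, at a mean of 31554 and a range of 28442 to 35136. mt-Nd1 of complex I followed at 29154 (21390 to 32875), a range that overlapped that of mt-Co2. mt-Co3, the third complex IV subunit, had a mean of 19348, and mt-Nd2 of complex I had 15929. mt-Cytb, the cytochrome b of complex III, and the ATP synthase subunits mt-Atp6 and mt-Atp8 lay close together at means of 13378, 13119 and 12101, with overlapping ranges. The remaining complex I mRNAs were lower, at 8953 for mt-Nd5, 7890 for mt-Nd4, 7124 for mt-Nd6, 5281 for mt-Nd3 and 4274 for mt-Nd4l. The rRNAs mt-Rnr1 (3521) and mt-Rnr2 (1746), of the small and large mitochondrial ribosomal subunit, had means below those of all 13 mRNAs in libraries made from polyadenylated RNA.

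**Figure D1:**
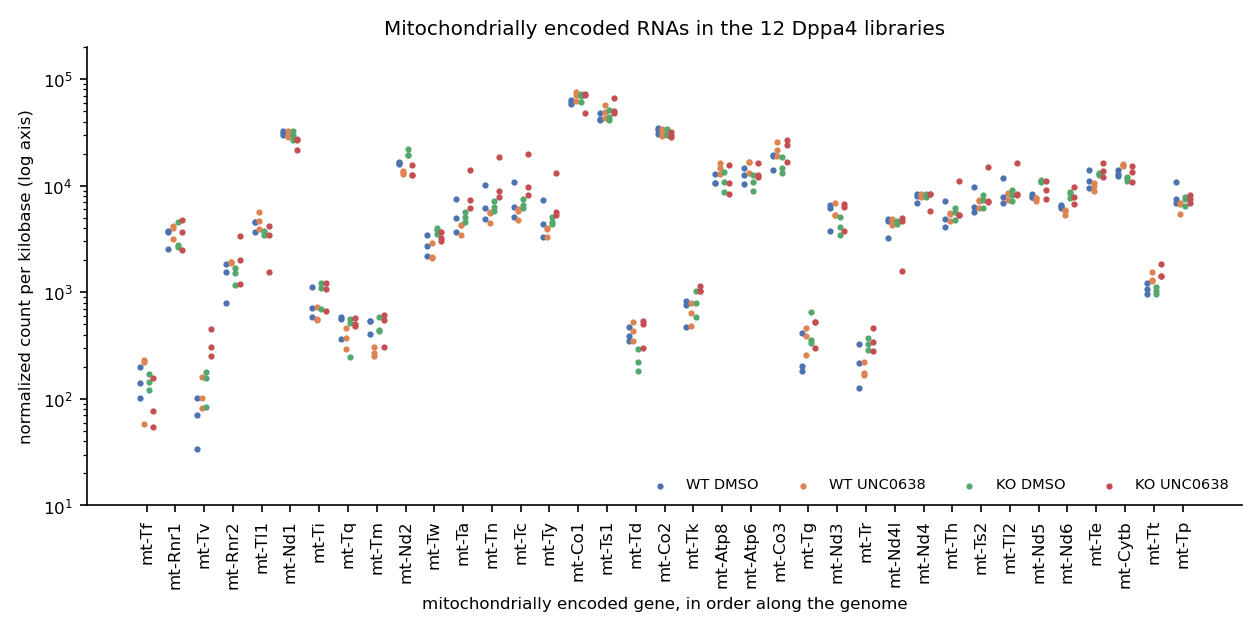
Normalized count per kilobase (log axis) of each of the 37 mitochondrially encoded genes in the 12 Dppa4 libraries, with genes in order along the genome and a point for each library, coloured by group. mt-Co1 has the highest mean at 65712, and the points of mt-Nd4l and mt-Tl1 show a single KO UNC0638 library below the rest.

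Among the tRNAs 21 of 22 had a mean of at least 10 normalized counts over the 12 libraries, and the exception, mt-Tf, had 9.51. The most abundant was mt-Ts1, a serine tRNA on the strand opposite mt-Co1 whose end overlaps that of mt-Co1 by 3 bases, with 2862 to 4593 normalized counts, and the next was mt-Te, the glutamic acid tRNA beside mt-Nd6. A tRNA is shorter than the fragments of a usual library, so reads assigned to it can come from precursors or from neighbouring genes.

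The share of all gene reads that came from the 37 genes gives a single figure for each library. In WT DMSO it was 2.39%, 2.43% and 2.24%, and in WT UNC0638 it was 2.95%, 2.69% and 2.57%. All 3 inhibitor libraries lay above all 3 DMSO libraries, with means of 2.74% (SD 0.191, n = 3) and 2.36% (SD 0.103, n = 3). The difference of 0.382 percentage points had p = 0.1 in a two-sided exact permutation test (adjusted over 4 comparisons p = 0.2), which is the smallest p that 3 against 3 can give.

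KO DMSO libraries had shares of 2.50%, 2.59% and 2.47%. These too lay above the WT DMSO libraries, by 0.163 percentage points on average (exact permutation p = 0.1, adjusted p = 0.2). With the chromosome 1 copies counted in, this separation was lost, since WT DMSO 2 at 3.14% lay above KO DMSO 1 at 3.10% (exact permutation p = 0.2, adjusted p = 0.4). The KO UNC0638 libraries had 2.7%, 2.88% and 1.98%, so that the lowest and the second highest share of all 12 libraries fell in this group. KO UNC0638 overlapped both KO DMSO (exact permutation p = 1) and WT UNC0638 (exact permutation p = 0.7, adjusted p = 0.933). Without KO UNC0638 3 the inhibitor difference in KO was 0.271 percentage points in place of -0.000158. Counting error was small beside these differences, with a 95% Wilson interval of 1.97% to 1.98% for the lowest library, and such intervals cover counting error only. In bulk RNA, fewer cells of a type and less RNA per cell cannot be told apart.

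In the experiments with group means the share ran from 1.39% to 5.84%. It was 5.24% in DMSO 24 h, 4.92% in dTAG 24 h, 5.45% in DMSO 7 d and 5.84% in dTAG 7 d, all computed from the authors' means. In the washout experiment it was 3.97% in DMSO 15 d, 5.17% in dTAG 15 d and 4.75% in Recovery. The sorted cells had the lowest share, 1.39%, in DMSO GFP-negative cells, then 1.73% in DMSO GFP-positive, 2.58% in dTAG GFP-positive and 2.93% in dTAG GFP-negative cells. mt-Co1 alone made up 34.1% to 51.3% of the mitochondrial reads or values in every library and group.

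**Figure D2:**
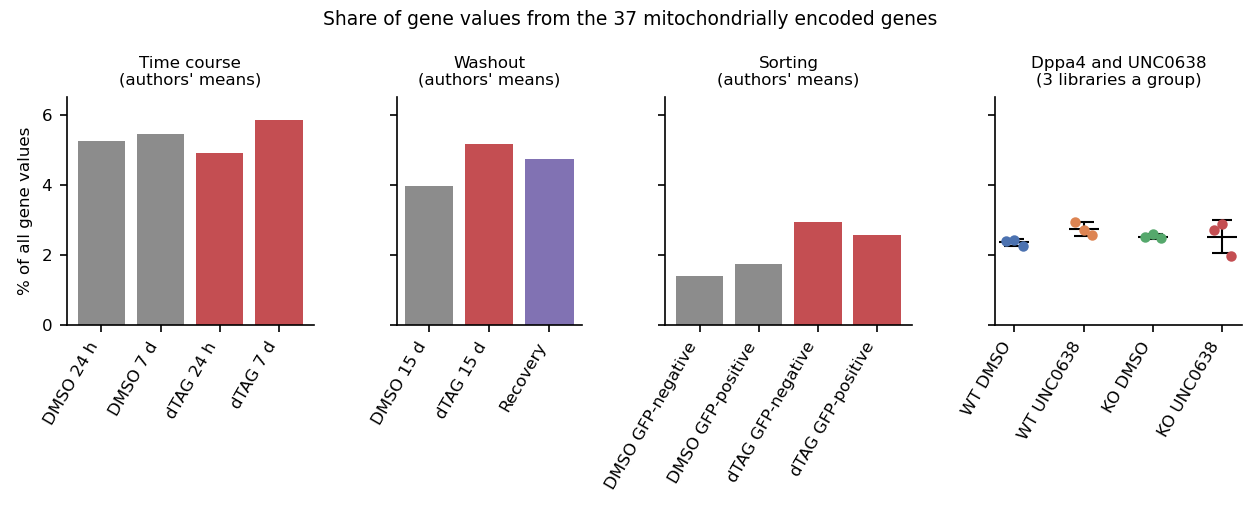
Share of all gene values (percent) taken by the 37 mitochondrially encoded genes, with bars for the authors' group means of the time course, washout and sorting experiments and, for the Dppa4 experiment, points for the 3 libraries of each group with the mean and SD. The share is 3.97% in DMSO and 5.17% in dTAG at 15 d, and 1.39% and 2.93% in sorted GFP-negative cells, and a single KO UNC0638 library has 1.98%.

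Inhibition of EHMT1 and EHMT2 in WT cells left no mitochondrial gene past the test. With limma and Benjamini-Hochberg adjustment over all genes, 0 of 37 had an adjusted p under 0.05, and 0 of 37 had an unadjusted p under 0.05, where the background was 8.71% of 17258 genes. Of all genes tested 0% were called with limma, where called means an adjusted p under 0.05 and an absolute log2 change of at least 1. edgeR and DESeq2 also called 0 of the 37, while over all genes edgeR called 0 and DESeq2 called 14. The median change of the 37 was -0.04 on the log2 scale, beside -0.00 for all genes, and the 13 mRNAs ran from -0.30 to 0.36.

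mt-Co1 had 99348, 94780 and 90166 normalized counts in WT DMSO and 117941, 108780 and 97034.5 in WT UNC0638. The groups overlapped, although within each of the 3 same-numbered pairs the inhibitor library was higher. The log2 change was 0.18 (SE 0.19, limma adjusted p = 0.746), and with the replicate number as a block the limma adjusted p was 0.598. mt-Cytb had 14801, 16171 and 13975 in WT DMSO and 17516, 17866 and 18186 in WT UNC0638. Here the inhibitor libraries were all higher, as they were for 4 of the 37 genes (mt-Rnr2, mt-Atp8, mt-Cytb and mt-Tt), while 5 had all inhibitor libraries lower (mt-Tm, mt-Nd2, mt-Nd5, mt-Nd6 and mt-Tp). Together these are 9 of 37, where 19.9% of all genes tested did not overlap between the same groups, 9.86% being higher and 10% lower.

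Loss of Dppa4 in DMSO also left 0 of 37 past the test, by limma at any size and by DESeq2 and edgeR at an absolute log2 change of at least 1, where limma called 4.43% of all genes and 6.63% passed at any size. At an unadjusted p under 0.05 there were 3 of 37 (mt-Nd2, mt-Nd5 and mt-Nd6), beside 24.1% of all genes. The nearest to the threshold was mt-Nd5, a proton-pumping subunit of complex I. It had 15324, 14399 and 14333 normalized counts in WT DMSO and 20570, 20110 and 19923 in KO DMSO. No KO library overlapped the WT libraries, with a log2 change of 0.46 (SE 0.15, limma adjusted p = 0.0832). mt-Nd5 passed in 3 of 22 alternative settings. Among these were DESeq2 (adjusted p = 0.0268), where 1902 of 17255 genes passed, and limma without the library KO UNC0638 3 (adjusted p = 0.0218), where 1822 of 17937 passed. mt-Nd6, on the opposite strand and overlapping the end of mt-Nd5 by 14 bases, had 3345, 3182 and 3434 in WT DMSO and 4391, 3981 and 4522 in KO DMSO. These groups did not overlap either, at a log2 change of 0.37 (SE 0.15, limma adjusted p = 0.139). Over the 37 genes 6 did not overlap between these groups (4 higher and 2 lower in KO), beside 29.6% of all genes (13.5% higher and 16.1% lower).

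UNC0638 in KO cells gave 0 of 37 past the limma test and 0 called by limma, edgeR or DESeq2, where limma called 0.464% of all genes and 0.585% passed at any size. There were 7 of 37 at an unadjusted p under 0.05, against a background of 15.4%. mt-Nd2, a complex I subunit of the membrane arm, had the lowest log2 change of the mRNAs and the lowest adjusted p of the 37, with 20312, 22865 and 20115 normalized counts in KO DMSO and 13094, 16262 and 12999 in KO UNC0638. The groups did not overlap and the log2 change was -0.58 (SE 0.14, limma adjusted p = 0.068). mt-Nd2 passed in 2 of 22 alternative settings, including DESeq2 (adjusted p = 0.00207), where 635 of 17255 genes passed. In WT the same gene had 16989, 17411 and 16735 in DMSO and 13405, 14189 and 14033 with UNC0638, again without overlap, at -0.30 (limma adjusted p = 0.566). The difference between these effects was not past the test for any of the 37 genes, with 4 of 37 at an unadjusted p under 0.05 (background 6.23%), a lowest limma adjusted p of 0.775, and 0 genes called over all 17258 by limma, edgeR or DESeq2. Groups did not overlap for 9 of 37 genes (8 higher and 1 lower), beside 16.9% of all genes (8.88% higher and 8.03% lower).

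With UNC0638 in both genotypes, 3 neighbouring tRNAs were higher in KO than in WT and were the only mitochondrial genes called in any contrast of the Dppa4 experiment with limma. They are mt-Ta, mt-Tn and mt-Tc, which carry alanine, asparagine and cysteine, and mt-Ty for tyrosine lies beside them on the minus strand. The sequences, from the mm10 genome, are shown because these 4 genes follow each other, with the anticodon in capitals.
mt-Ta: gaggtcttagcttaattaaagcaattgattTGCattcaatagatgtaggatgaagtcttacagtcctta
mt-Tn: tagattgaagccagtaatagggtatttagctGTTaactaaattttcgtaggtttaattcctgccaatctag
mt-Tc: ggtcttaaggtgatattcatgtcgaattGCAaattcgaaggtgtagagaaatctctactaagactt
mt-Ty: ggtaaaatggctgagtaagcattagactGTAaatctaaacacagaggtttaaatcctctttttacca
They lie at chrM:5018-5086, chrM:5089-5159, chrM:5192-5257 and chrM:5260-5326. Each anticodon was found as the triplet flanked by a stem of 5 paired bases.

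mt-Ta had 236, 293 and 298 normalized counts in WT UNC0638 and 426, 509 and 973 in KO UNC0638. The KO libraries were all higher, and KO UNC0638 3 was far above the other two. The log2 change was 1.11 (SE 0.29, limma adjusted p = 0.0353). mt-Tn had 317, 405 and 395 in WT UNC0638 and 555, 640 and 1329 in KO UNC0638, a log2 change of 1.07 (SE 0.30, limma adjusted p = 0.0492). mt-Tc changed by 1.08 (SE 0.29, limma adjusted p = 0.048), and mt-Ty by 0.98 (SE 0.32, limma adjusted p = 0.0894), which did not pass. Over the 12 libraries the log2 values of these 4 genes had pairwise correlations of 0.986 to 1.00, as a description of neighbours that may share reads, so the 3 calls are close to a single measurement. They are 3 of 37, beside 0.973% of all genes called higher and 3.29% called in either direction (4.47% passed at any size), and 10 of 37 had an unadjusted p under 0.05 against a background of 20%. DESeq2 called 4 of the 37, beside 868 of 17255 genes, and edgeR 3, beside 574 of 17258.

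The 3 calls depended on single libraries. Without KO UNC0638 3 the log2 change of mt-Ta was 0.76 (limma adjusted p = 0.109), that of mt-Tn 0.69 and that of mt-Tc 0.70, and none of the 3 passed. They were also lost when any of the 3 WT UNC0638 libraries was left out, with log2 changes of mt-Ta between 1.01 and 1.17 (limma adjusted p = 0.0827 to 0.112). Over 22 settings mt-Ta passed in 18 and mt-Tn and mt-Tc in 10 each, with limma, edgeR or DESeq2.

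Summed over mt-Ta, mt-Tn, mt-Tc and mt-Ty, WT DMSO had 1492, 1157 and 2445 normalized counts, WT UNC0638 1087, 1368 and 1340, KO DMSO 1543, 1732 and 1427, and KO UNC0638 1878, 2170 (2169.5) and 4494. The highest library of the DMSO groups, WT DMSO 3, lay above 2 of the 3 KO UNC0638 libraries. A second run of tRNAs, mt-Th, mt-Ts2 and mt-Tl2 for histidine, serine and leucine, lies on the plus strand between mt-Nd4 and mt-Nd5 (chrM:11546-11741), and its sequences are shown for the same reason.
mt-Th: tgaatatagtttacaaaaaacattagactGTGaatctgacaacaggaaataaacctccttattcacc
mt-Ts2: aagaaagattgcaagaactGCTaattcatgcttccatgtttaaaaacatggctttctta
mt-Tl2: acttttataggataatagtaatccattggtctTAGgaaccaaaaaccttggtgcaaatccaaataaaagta
Their sum was 1347, 1369 and 2788 in KO UNC0638 and 1197, 1384 and 1408 in WT UNC0638. KO UNC0638 3 was the highest of all 12 libraries in this run as well, and WT DMSO 3 the second highest at 1892, while the other libraries of the 2 inhibitor groups overlapped. In KO UNC0638 3 tRNAs made up 6.54% of the mitochondrial reads, against 2.82% to 4.15% in the other 11 libraries. The same library had the lowest mt-Co1 (74730 normalized counts, others 90166 to 117941) and the lowest mt-Nd4l (469.7, others 951.9 to 1469).

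**Figure D3:**
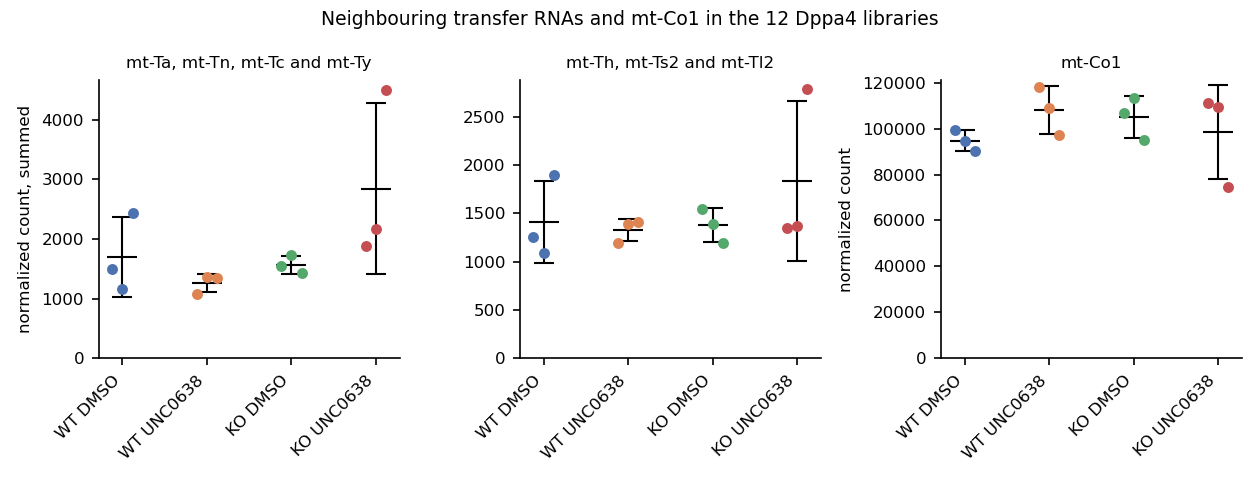
Normalized counts in the 3 libraries of each Dppa4 group (points), with the mean and SD, for the sum of mt-Ta, mt-Tn, mt-Tc and mt-Ty, the sum of mt-Th, mt-Ts2 and mt-Tl2, and mt-Co1. The library KO UNC0638 3 is highest in both tRNA runs (4494 and 2788) and lowest in mt-Co1 (74730).

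Of the mRNAs, none passed between KO and WT with UNC0638. Changes of the 13 mRNAs ran from -0.47 to 0.50, and the highest was mt-Nd6. It had 2771, 3015 and 3078 normalized counts in WT UNC0638 and 5020, 4096 and 3531 in KO UNC0638. The KO libraries were again all higher, as in DMSO, at a log2 change of 0.50 (SE 0.15, limma adjusted p = 0.0658). mt-Nd6 passed in 3 of 22 alternative settings. Among these were DESeq2 (adjusted p = 0.0186), where 1433 of 17255 genes passed, and limma without KO UNC0638 3 (adjusted p = 0.022), where 558 of 17937 passed. mt-Cytb was lower in all KO than in all WT libraries in DMSO and again with UNC0638, at 12458 to 17415 against 17516 to 18186 with the inhibitor. In all 13 of 37 genes did not overlap (11 higher and 2 lower in KO), beside 24.2% of all genes (11.6% higher and 12.6% lower). Summed feeder fibroblast markers (7 genes) were lower in KO (1020 to 1613 normalized counts) than in WT (1722 to 2633), with 5 to 7 of the 7 above 0 in every library, and summed 2-cell-like markers (6 genes) were 0 in all KO libraries against 52.4 to 3111 in WT. Their part in these differences was not tested.

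In the time course the mRNAs stayed near the DMSO values at 24 h and most lay above them at 7 d. After 24 h of dTAG-13 the 13 mRNAs had log2 ratios of -0.19 to 0.06 to DMSO, computed from the authors' means plus 1, and 11 of 13 were below 0. The rRNAs were higher, with an authors' mean of 10136 against 6401 normalized counts for mt-Rnr1 and 12469 against 8375 for mt-Rnr2. A single member, mt-Tl2, was past a log2 ratio of 1 in size, with authors' means of 6.19 in DMSO and 1.98 in dTAG. That is 1 of 37, beside 8.78% of the features above 0 in either direction and 3.46% lower. After 7 d the median of the 37 was 0.28 (0.03 for all features), 11 of 13 mRNAs were above 0, and the highest mRNAs were mt-Nd3 at 0.47 and mt-Nd1 at 0.46, while mt-Co1 was at -0.05. Past the fold were 2 of 37 (mt-Ta and mt-Tc, both with authors' means under 10), beside 12.2% of features in either direction and 7.08% higher. Time in culture alone, DMSO 7 d against DMSO 24 h, put 4 of 37 past the fold (mt-Ta, mt-Tn, mt-Tc and mt-Ty, all lower), beside 5.07% in either direction and 3.1% lower. These 4 were at authors' means of 2.44 to 12.4 in the DMSO groups, and with a pseudocount of 10 none of them was past the fold. These comparisons share DMSO groups. Summed 2-cell-like markers were 106 and 1147 in DMSO and dTAG at 24 h and 175 and 3668 at 7 d, with 6 of 6 past the fold at both times. Summed feeder markers were 1622 and 2042 at 24 h, with 3 of 7 above a ratio of 0, and 1358 and 2084 at 7 d, with 7 of 7 above. The part of either in these ratios was not tested.

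After 15 d of dTAG-13 nearly all of the genome had higher group means. Of the 35 genes above 0 in either group 34 had a log2 ratio above 0, including 13 of 13 mRNAs, and the median was 0.62 beside 0.03 for all features. Past the fold were 8 of 35, all higher, beside 9.21% of features in either direction and 7.45% higher. mt-Nd6 had the highest ratio of the mRNAs at 1.08 (authors' means of 982 against 465 normalized counts), and mt-Nd4 had 0.73 (48889 against 29432). mt-Nd5 had 0.70 (42824 against 26316), whereas mt-Co1 had 0.19 (501623 against 438227) and mt-Co3 0.05. The mt-Rnr2 mean was 7404 against 3008, a ratio of 1.30 on the log2 scale. Of the 8 genes past the fold 6 were tRNAs, and the count depended on the setting. It was 2 of 35 at a pseudocount of 10, beside 719 of 30405 features. When genes averaging under 10 were left out it was 5 of 25, beside 827 of 17316. Scaled to the summed nuclear genes it was 11 of 35, beside 2931 of 30405.

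After washout most values still lay above those of DMSO in the group means. Recovery against DMSO 15 d had 30 of 36 genes above 0, a median of 0.47 beside -0.00 for all features, and 10 of 36 past the fold, all higher, beside 5.15% of features in either direction and 2.85% higher. The 13 mRNAs ran from 0.10 to 1.56, with mt-Nd6 highest at an authors' mean of 1377. mt-Rnr1 had 11095 in Recovery against 5487 in DMSO and 7504 in dTAG 15 d. Against dTAG 15 d the median was -0.09 and 2 of 36 were past the fold, both higher (mt-Tl2 and mt-Tq), beside 10.8% in either direction and 2.23% higher. mt-Nd5 was lowest among the mRNAs in this comparison at -0.60 (28196 against 42824), and close to its DMSO level. The Recovery and dTAG comparisons share the DMSO 15 d group, and dTAG 15 d stands in both of its comparisons, so these ratios are not independent. Summed 2-cell-like markers were 296 in DMSO 15 d, 6411 in dTAG 15 d and 483 in Recovery, and summed feeder markers were 2447, 3292 and 963, whose part in the ratios was not tested.

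Of the 10 comparisons of group means, dTAG against DMSO in sorted GFP-negative cells had the most genes past the fold. It put 19 of 37 genes past the fold, all higher, beside 12.5% of features in either direction and 8.61% higher. The median of the 37 was 1.01 on the log2 scale and that of all features 0.06, and all 13 mRNAs had ratios of 0.72 to 1.62. mt-Nd1 had the highest ratio of the mRNAs, with authors' means of 7593 in DMSO and 23419 normalized counts in dTAG. mt-Nd4 had 7106 and 20004, mt-Cytb 11063 and 25814, and mt-Co1 44739 and 90793 in the same order. mt-Nd5 had the smallest ratio of the mRNAs, with 7088 and 11676. All 22 tRNAs were above 0, whereas the rRNAs were not, at -0.16 for mt-Rnr1 and -0.31 for mt-Rnr2. Scaled to the summed nuclear genes the count was again 19, beside 4442 of 32882 features, and the median was 1.04.

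In GFP-positive cells dTAG-13 gave ratios above 0 for 37 of 37, a median of 0.75 beside -0.04 for all features, and 3 of 37 past the fold (mt-Ti, mt-Td and mt-Nd3), all higher, beside 15.1% in either direction and 7.41% higher. The 13 mRNAs ran from 0.65 to 1.01, and mt-Nd3 had authors' means of 2445 against 1209. With the chromosome 1 copies added back, 2 of 37 were past the fold, beside 5194 of 34407 features. The highest mRNA was then at 0.97, so mt-Nd3 was no longer past the fold. Scaling to the summed nuclear genes, which moved the median of all features from -0.04 to -0.24, left a median of 0.52 for the 37 and none past the fold. Summed 2-cell-like markers were 427 in DMSO GFP-negative, 4322 in dTAG GFP-negative, 79711 in DMSO GFP-positive and 119127 in dTAG GFP-positive cells. Summed feeder markers were 339, 661, 915 and 1542 in the same order, with all of Col1a1, Col1a2, Col3a1, Thy1, Postn, Lum and Dcn above 0 in the first 3 groups. These cells had been sorted by the GFP reporter, and the part of feeder RNA was not tested.

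GFP-positive cells had higher mitochondrial values than GFP-negative cells in DMSO, with 35 of 37 above 0, a median of 0.50 (0.11 for all features), and mRNAs at 0.40 to 0.69. None of the 37 was past the fold, beside 26.7% of features, and scaled to nuclear genes the median was 0.36 with all 13 mRNAs above 0. The rRNAs were lower, at -0.08 and -0.52. In dTAG-13 the direction depended on the scaling. With the authors' size factors the median of the 37 was 0.18, with 28 of 37 above 0, 13 of 13 mRNAs above 0 and none past the fold, beside 25% of features. Scaled to nuclear genes, which moved the median of all features to -0.36, the median of the 37 was -0.22 with 6 of 37 above 0.

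**Figure D4:**
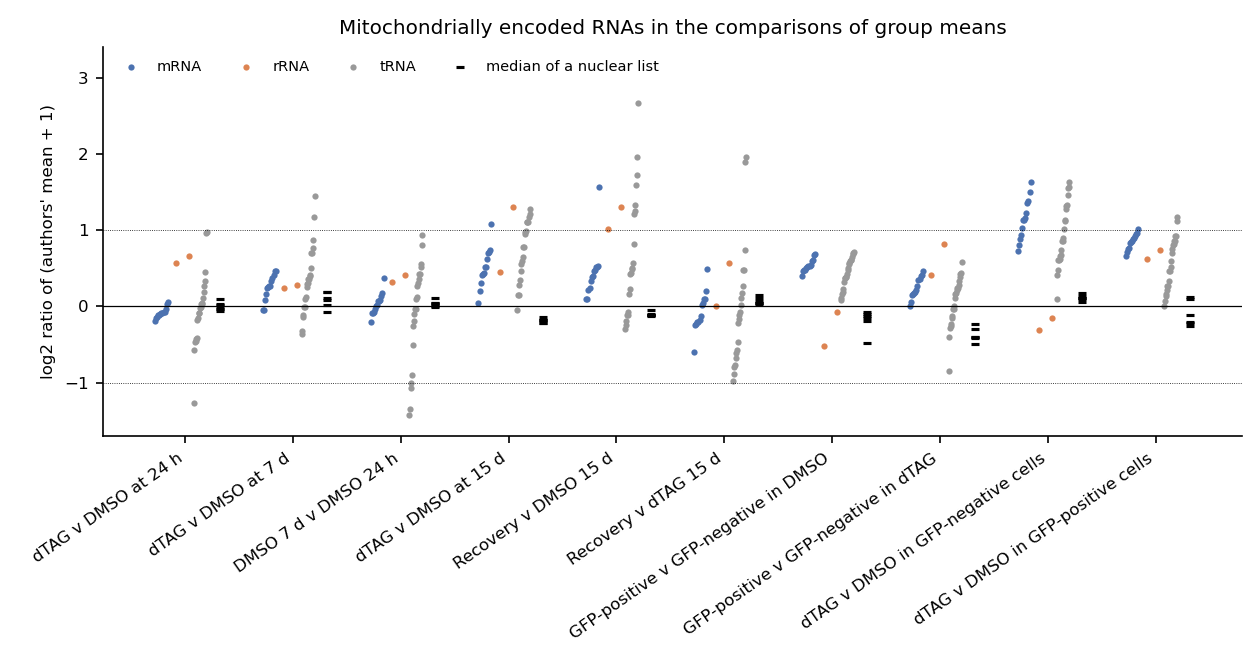
Log2 ratio of the authors' group means plus 1 for each mitochondrially encoded mRNA, rRNA and tRNA in 10 comparisons, with dotted lines at the fold used, and black dashes for the medians of 6 lists of nuclear-encoded mitochondrial proteins. In dTAG against DMSO GFP-negative cells the 13 mRNAs lie at 0.72 to 1.62 while the 6 nuclear list medians lie at 0.06 to 0.17.

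The nuclear-encoded partners of these RNAs had medians nearer 0 than the mitochondrial mRNAs in dTAG against DMSO at 15 d and in GFP-negative cells, but not in every comparison of the group means. The lists were the nuclear subunits of complexes I to IV and of ATP synthase and 78 mitochondrial ribosomal proteins. In dTAG against DMSO GFP-negative cells their medians were 0.06 to 0.17, and 1 gene of the 6 lists, a complex IV subunit, was past the fold and was lower. At 15 d the medians were -0.22 to -0.14, with 13 of 13 mitochondrial mRNAs above 0. For complex I, 5 of 37 nuclear subunits were above 0 at 15 d, beside 7 of 7 mitochondrially encoded subunits. In GFP-positive against GFP-negative cells with dTAG-13 all 6 list medians were below 0, at -0.50 to -0.23, and farther from 0 than the median of the 13 mitochondrial mRNAs at 0.21. In DMSO the median of complex II (4 genes) in the same comparison was -0.49, and those of the other lists were -0.19 to -0.08, beside 0.52 for those mRNAs.

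Factors of mitochondrial gene expression were read in the Dppa4 experiment with limma. Tfam (transcription factor A), which packages mitochondrial DNA and helps to start its transcription, had 759, 920 and 1026 normalized counts in WT DMSO and 570, 529 and 655 in KO DMSO. It was lower in all KO libraries, by -0.62 (SE 0.17, limma adjusted p = 0.0402). Tefm, the elongation factor of the mitochondrial polymerase, fell by 0.67 (SE 0.19, limma adjusted p = 0.0473), so that 2 of 10 genes of mitochondrial transcription passed, both lower, beside 6.63% of all genes. With UNC0638, 1 of these 10 passed between KO and WT (beside 4.47% of all genes), the rRNA methyltransferase Tfb1m at 1.20 (SE 0.33, limma adjusted p = 0.0457). Polrmt, the mitochondrial RNA polymerase, passed in no contrast, nor did Lrpprc and Slirp, which stabilize mitochondrial mRNAs, Polg, the DNA polymerase, or Twnk, the helicase. Ppargc1a, a coactivator of mitochondrial biogenesis, had 0 reads in all 12 libraries.

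None of the 25 genes of RNA processing and stability, the 13 of DNA maintenance or the 6 tested biogenesis regulators passed limma in any contrast. Among respiratory subunits, 2 of 37 for complex I (Ndufv3 at 0.69 and Ndufb11 at 0.95) and 1 of 12 for complex IV (Cox6b2 at 1.17) were higher in KO than in WT with UNC0638, where 4.47% of all genes passed. None of the 4 of complex II, 9 of complex III or 16 of ATP synthase passed in any contrast. Of the 78 ribosomal proteins 2 were lower in KO DMSO (Mrps33 and Mrpl50), a smaller share than the 6.63% of all genes that passed there. Mrpl50 was higher with UNC0638 in KO at 0.82 (limma adjusted p = 0.0498), 1 of 78 beside 0.585%.

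The make-up of the mitochondrial RNA differed between experiments. Within a table, values were set relative to mt-Co1 (per 1000 of its value), since the tables were normalized separately. The mRNAs had a median ratio of 1.13 between sorting and time course and 1.04 between Dppa4 and time course. The tRNAs were higher in sorting and Dppa4, with median ratios of 15.0 and 14.2 and with 21 and 22 of 22 above 1. In the time course 7 of the 22 tRNAs were under 10 normalized counts in every group, and 12 were at 10 or more in every group. The size of a ratio is uncertain where the time course value is that low. mt-Nd6 was the mRNA that differed most, at ratios of 3.63 and 3.55.

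The leading tRNA differed between tables, and the sequences of the leading tRNAs are given with the anticodon in capitals. mt-Tl1, a leucine tRNA on the plus strand between mt-Rnr2 and mt-Nd1 (chrM:2676-2750), was the highest tRNA in the time course and washout, and mt-Ts1 on the minus strand (chrM:6870-6938) was the highest in sorting and Dppa4.
mt-Tl1: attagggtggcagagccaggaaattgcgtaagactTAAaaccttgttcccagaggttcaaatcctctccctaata
mt-Ts1: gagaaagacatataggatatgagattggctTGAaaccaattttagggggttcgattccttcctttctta
mt-Tl1 had 2.15, 1.34, 2.46 and 2.89 per 1000 of mt-Co1 in the time course, washout, sorting and Dppa4 tables. mt-Ts1 had 0.0356 and 0.0201 in the time course and washout but 19.0 and 33.7 in sorting and Dppa4. mt-Tl1 and mt-Ts1 do not stand for their strands. The plus-strand mt-Th had 0.0224 in the time course, 1.69 in sorting and 4.02 in Dppa4. In the same order the minus-strand mt-Tq had 0.0877, 0.0891 and 0.325. The time course and washout libraries were made with a stranded polyadenylated RNA kit. The sorting libraries (low input) and the Dppa4 libraries (polyadenylated RNA) both came from another provider and were read at a greater length, and counting used default parameters throughout. Library preparation, provider and read length change together along this split, so they cannot be told apart. The sorting experiment used EHMT2-dTAG-mcherry cells as the time course did, but with a MERVL-GFP reporter and a sort, and the Dppa4 experiment used other cells. The part of the cells was not tested.

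**Figure D5:**
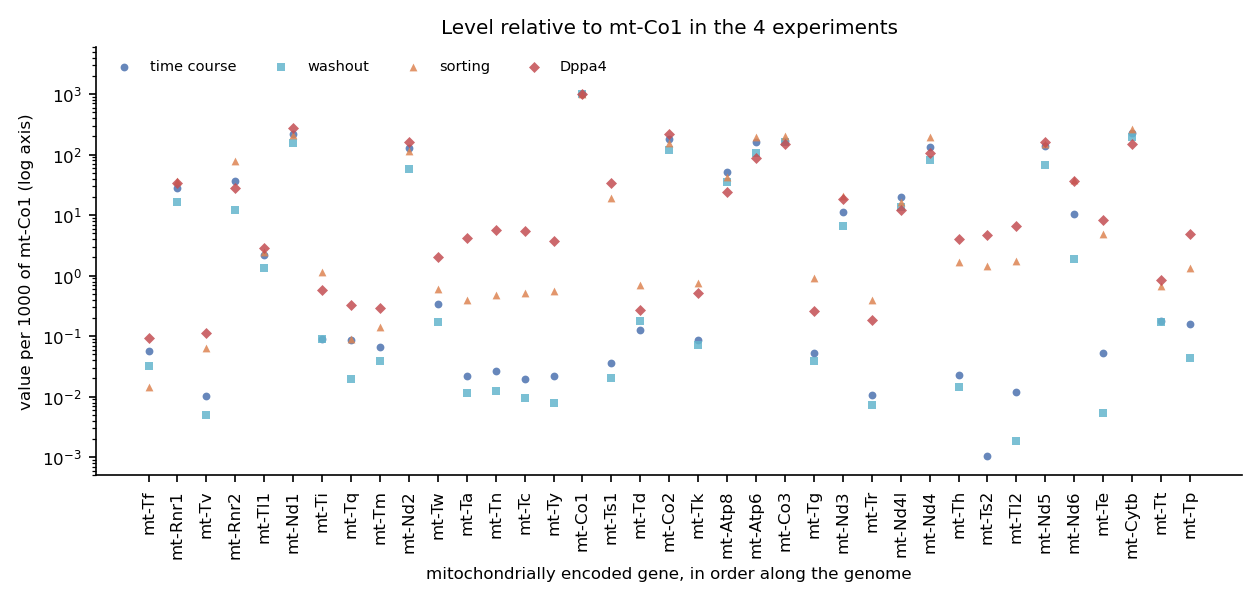
Level of each mitochondrially encoded gene per 1000 of mt-Co1 (log axis) in the mean of each of the 4 tables, with genes in order along the genome and a symbol for each table. mt-Ts1 is at 0.0356 in the time course and 33.7 in the Dppa4 table while mt-Tl1 is at 2.15 and 2.89, and mt-Ts2, listed at 0 in the washout table, has no symbol there.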

How the data were processed

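Polyadenylated or low-input RNA of mESCs was sequenced in 45 libraries. Per the labels and the study's methods, the authors trimmed reads with Trim Galore 0.6.7 and aligned them to mm10 with STAR 2.7.10, introns not allowed, with a read that fitted many places written to a single random place. Genes (GENCODE vM25) and repeats were counted with TEcounts. The deposited signal values are counts that the authors divided by DESeq2 1.34.0 size factors over genes and repeats. Deposited fold changes and p-values were not used.

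For the Dppa4 experiment every value gave a whole read (100%, relative tolerance 1e-06). limma 3.58.1 with a trend (R 4.3.3) was fitted to log2 of the normalized count plus 1 over 4 groups, for 17258 genes kept by edgeR's filterByExpr, with Benjamini-Hochberg adjustment over all of them. All 37 members passed this filter. Such log2 changes understate those of low genes. On simulated libraries of the WT inhibitor contrast, 93.5% of 200 genes changed 4-fold were found among 17258, with 10 false calls. The 13 mRNAs ran only from -0.30 to 0.36 on the log2 scale there, so the simulation does not give the power for changes of their size. In the real libraries of that contrast 3 of the 2-cell-like markers were tested, with a median log2 change of 2.18, and 0 passed. The other 3 experiments hold the authors' group means, so the log2 ratio of means plus 1 is given with no test, over features above 0 in either group, and a log2 ratio of 1 in size counts as past the fold. Shares were compared by two-sided exact permutation tests (scipy 1.17.1).

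Alternatives were pseudocounts of 0.5 and 10, TMM and nuclear scaling, no filter, edgeR 4.0.16, DESeq2 1.42.0 on the recovered reads, a block for the replicate number, and fits that left out 1 library at a time. Summing members with their chromosome 1 copies was added after the data were seen. Replicate numbers come from the sample titles. Deviations from group means of same-numbered DMSO and UNC0638 libraries had r of 0.246, 0.103 and 0.431 in WT. In KO they had 0.154, -0.0923 and 0.0129. Libraries with unlike numbers reached 0.119, so these values cannot settle whether the same number marks a pair. All mRNAs and rRNAs could be named, tRNAs with a mean of at least 10 normalized counts or past the test, and mt-Tf, chosen after its values were seen. Of other lists at most the 2 highest and 2 lowest that passed in a contrast, plus Tfam, Polrmt, Lrpprc, Slirp, Ppargc1a, Polg and Twnk, are named. The members and lists were chosen with earlier results of these data known. Positions and sequences come from the mm10 genome and GENCODE vM21.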

Additional observations from a re-analysis of the deposited data

How the results depend on the processing

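The count of members called between KO and WT with UNC0638 was 3, and 1 with a pseudocount of 0.5, with TMM scaling or with no filter. Leaving out a library gave 0 to 3. With a replicate block, limma called the same number, 3, beside 753 of 17258 genes. At any size 5 members passed (mt-Ta, mt-Tn, mt-Tc, mt-Ty and mt-Nd6), beside 1244 of 17258 genes, against 772 without the block. With the block mt-Nd5 passed in KO against WT in DMSO (limma adjusted p = 0.0362), as did 1996 of 17258 genes. mt-Nd2 passed with UNC0638 in KO (limma adjusted p = 0.0275), as did 346 of 17258. Between genotypes these libraries share only a number, and within a genotype the labels do not say whether the number marks a clone. The block changed no member call in WT. The other 3 contrasts between groups and the difference of effects called 0 members under every alternative run. Over all genes, calls for UNC0638 in KO were 80, and 12 with no filter, 37 with edgeR, 285 with DESeq2, 172 with the block and 2 to 365 without a library. For KO against WT they were 765 in DMSO (286 to 969 without a library) and 567 with UNC0638 (190 to 665, and 868 with DESeq2).

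The share of reads differed by 0.278 to 0.465 percentage points for UNC0638 in WT without a library, by -0.180 to 0.271 in KO, by 0.105 to 0.203 for KO against WT in DMSO, and by -0.399 to 0.0521 with UNC0638. From DMSO 24 h to 7 d it differed by 0.210, and by 0.321 with the chromosome 1 copies.

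Counts of members past the fold in group means moved with the settings. With a pseudocount of 10 they were 0 for dTAG at 24 h, at 7 d and for DMSO 7 d against 24 h. They were 2 for dTAG at 15 d (beside 719 of 30405 features), 5 for Recovery against DMSO (211 of 29382) and 1 against dTAG (907 of 30456). With a log2 ratio of 0.5, dTAG at 24 h had 6 of 37, beside 8853 of 31593 features, and dTAG at 7 d 6 of 37 (10713 of 31785). DMSO 7 d against 24 h had 10 of 37 (7032 of 31239), and dTAG at 15 d 22 of 35 (8337 of 30405). Recovery had 16 of 36 against DMSO (6924 of 29382) and 12 of 36 against dTAG (9217 of 30456). GFP-positive cells had 20 of 37 in DMSO (18643 of 34215) and 3 of 37 in dTAG (17744 of 33985). For dTAG there were 32 of 37 in GFP-negative (11481 of 32882) and 27 of 37 in GFP-positive cells (13878 of 34414). Among features with a mean of at least 10 the counts were 0 in the time course comparisons and 0 for Recovery against dTAG. They were 5 for dTAG at 15 d (beside 827 of 17316 features) and 5 for Recovery against DMSO (466 of 17316). Scaled to nuclear genes, 1 member was past the fold for GFP-positive in dTAG, beside 9775 of 33985 features, and the median turned to -0.22 (-0.215). For dTAG in GFP-positive cells the count was 0, beside 5182 of 34414. No paired analysis was possible because the 3 experiments analysed as group means carry no library values there. The causes were not tested.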
